A study of Mus musculus with 4 samples.

Results

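The genes followed here belong to the stretch and load response of striated muscle: the ankyrin repeat genes Ankrd1, Ankrd2 and Ankrd23, the LIM protein gene Csrp3, the Xin repeat genes Xirp1 and Xirp2, the muscle filamin gene Flnc and Mustn1. These 8 were picked by symbol, with earlier results of the same comparison known, and each of the 8 stands on 1 row of the 37305 rows deposited. Ankrd1, Ankrd2 and Ankrd23 encode small proteins that bind the elastic part of titin in the sarcomere and can also enter the nucleus, and their transcripts are known to respond to stretch, injury and disuse. Csrp3 encodes muscle LIM protein, a Z-disc and nuclear cofactor. Xirp1 and Xirp2 encode actin-binding proteins built from Xin repeats, which gather at myotendinous junctions and at damaged stretches of a fibre. Filamin C crosslinks actin around the Z-disc and binds Xin proteins, and Mustn1 is a small protein of the musculoskeletal system.

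Gene expression in mouse muscle was measured by RNA-seq of total RNA in 4 libraries of strain C57BL/6, labelled GTN muscle. Con-TD is represented by libraries F and G, and MCK-TD by libraries A and B, and their values are given in that order. No batch is recorded, so any effect of one cannot be told apart from that of the genotype. The labels leave GTN, TD and MCK unexpanded and give no altered gene, promoter, age or treatment. A check of a targeted gene was therefore not possible. The labels also do not say whether libraries are separate animals, so the scatter between libraries may be technical. Each p-value sets the group difference only against that scatter, moderated by the scatter of all rows tested. Muscle fibre markers were abundant in each library (8 of 8 detected, summed level 64061 to 70428 FPKM in Con-TD and 40863 to 42451 in MCK-TD). In both MCK-TD libraries 7 of the 8 were lower, against 21.3% of all rows tested. Levels are FPKM, fragments scaled by transcript length and by library, so genes can be compared with each other. The absolute depth is unknown, and relative to Con-TD F the other libraries stood at 0.933 to 0.953. All 8 genes passed the minimum mean of 1 FPKM that left 12474 rows for testing, the lowest being Xirp1 with a mean of 35.1 FPKM.

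The 8 genes did not form one pattern. Ankrd1 and Mustn1 were far higher in both MCK-TD libraries, Flnc and Xirp1 were moderately higher, and Xirp2 was lower in both. Ankrd2, Ankrd23 and Csrp3 had overlapping groups. Because the genes were chosen with this comparison known, their differences are given as a description, and counts of calls among them are printed beside the background only.

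**Figure D1:**
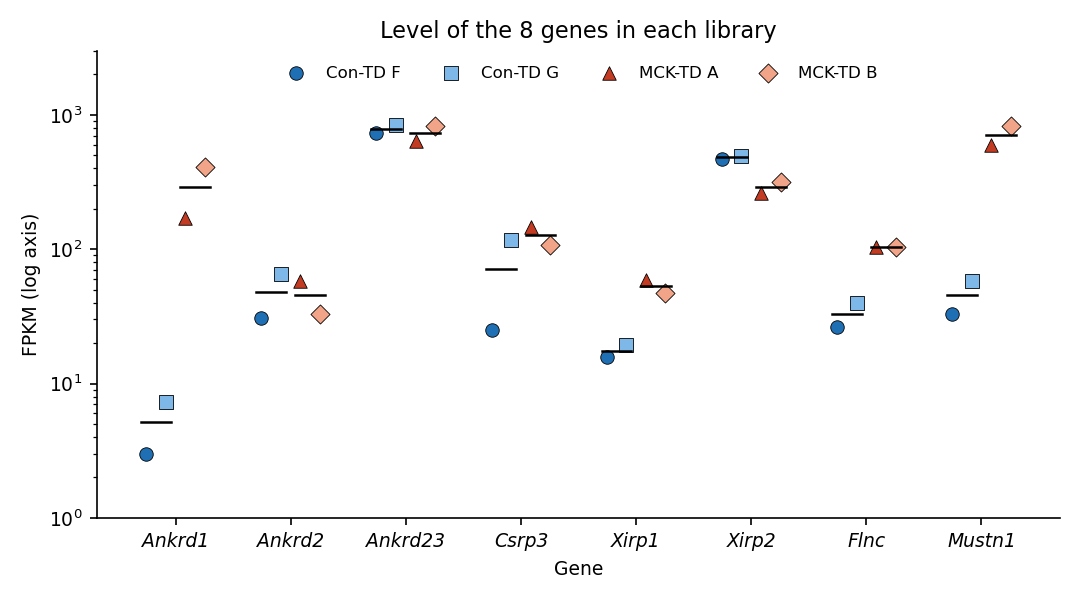
FPKM on a log axis of the 8 genes in each of the 4 libraries, with a bar at the mean of each group of 2. Ankrd1 stands between 2.99 and 7.33 in Con-TD and between 172 and 411 in MCK-TD, whereas Ankrd23 stays between 642 and 835 in all 4.

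Ankrd1, known as cardiac ankyrin repeat protein, measured 2.99 (F) and 7.33 (G) FPKM in Con-TD against 172 (A) and 411 (B) in MCK-TD. Both MCK-TD libraries lay far above both Con-TD libraries. The group means were 5.16 ± 3.06 and 292 ± 169 FPKM (SD, n = 2), 56.5-fold apart, and the ratio between single libraries of the groups ran from 23.5 to 137. Within each group the pair of libraries also differed, by 2.45-fold in Con-TD and 2.39-fold in MCK-TD. Among the 12474 rows, only 2.81% had a larger gap between the Con-TD libraries on the log2(FPKM + 1) scale and 2.27% a larger gap between the MCK-TD libraries. Its rank by level moved from 8394 and 5752 in the Con-TD pair to 477 and 211 in the MCK-TD pair. Its log2 difference of 5.53 was number 10 from the top of all rows.

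Ankrd2, whose product is known from slow fibres of skeletal muscle, gave another picture. It measured 30.5 (F) and 65.0 (G) FPKM in Con-TD against 57.8 (A) and 32.9 (B) in MCK-TD. The highest and the lowest library were both Con-TD, and the MCK-TD libraries lay between them. The group means were 47.8 ± 24.4 and 45.4 ± 17.6 FPKM (SD, n = 2). The log2 difference was -0.03 with both Con-TD libraries, -0.56 without Con-TD F and 0.50 without Con-TD G, so that its sign depended on which Con-TD library was used.

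Ankrd23, the diabetes-related ankyrin repeat protein, was the most abundant of the 8 genes in all 4 libraries. It measured 726 (F) and 835 (G) FPKM in Con-TD against 642 (A) and 829 (B) in MCK-TD. The groups overlapped, with means of 780 ± 76.5 and 735 ± 132 FPKM (SD, n = 2). The log2 difference was -0.09, and it turned to 0.01 without Con-TD G and to 0.09 without MCK-TD A. It was -0.19 without Con-TD F and -0.28 without MCK-TD B. With all libraries the difference was smaller than the gap between the libraries of either group, 0.20 in Con-TD and 0.37 in MCK-TD.

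The make-up of the ankyrin repeat family therefore differed between the libraries. Ankrd1 made up 0.394% and 0.808% of the summed FPKM of the family in the Con-TD pair. In the MCK-TD pair it made up 19.7% and 32.3%, while Ankrd23 went from 95.6% and 92.0% to 73.6% and 65.1%. The ratio of Ankrd1 to Ankrd2 within a library, which no scaling between libraries can change, was 0.0981 and 0.113 in the Con-TD pair and 2.97 and 12.5 in the MCK-TD pair. The ratio of Ankrd2 to Ankrd23 was 0.0420, 0.0779, 0.0901 and 0.0397 in the same order, with no separation of the groups.

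Csrp3 measured 25.0 (F) and 116 (G) FPKM in Con-TD against 147 (A) and 108 (B) in MCK-TD. Only Con-TD F stood apart: Con-TD G lay between the MCK-TD libraries. The group means were 70.6 ± 64.6 and 128 ± 27.6 FPKM (SD, n = 2). The MCK-TD mean was 1.81 times the Con-TD mean, and the log2 difference was 0.12 without Con-TD F and 2.29 without Con-TD G. Con-TD G held 4.65 times the level of Con-TD F, and 1.38% of rows had a larger gap between these libraries. The ratio of Csrp3 to Csrp1, a related LIM protein gene known from smooth muscle, was 2.71 (F) and 10.4 (G) in Con-TD against 17.4 (A) and 11.9 (B) in MCK-TD.

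Csrp3 and Ankrd2 are known to be more abundant in slow fibres, and slow-fibre markers differed between the Con-TD libraries as well. All 10 slow-fibre markers were higher in library G than in library F, with a median log2 gap of 1.10. This was not particular to slow fibres. Higher in G were also 5 of 6 adipocyte (median gap 0.996), 8 of 8 tendon and myotendinous (0.64) and 8 of 8 fibro-adipogenic progenitor markers (0.37). So were 7 of 8 endothelial and 8 of 10 macrophage markers, but only 1 of 8 muscle fibre and 3 of 10 cardiac markers. The summed level of the slow-fibre markers was 651 (F) and 1482 (G) FPKM in Con-TD against 1130 (A) and 946 (B) in MCK-TD, and none was at 0. Slow troponin T, Tnnt1, was at 103, 280, 234 and 182 FPKM in that order. The 10 markers did not move together between the groups. In both MCK-TD libraries 3 were higher and 3 lower, against 50.7% and 21.3% of all rows tested. Atp2a2, 1 of those higher, was at 17.4, 36.7, 93.2 and 100 FPKM. Myh7, 1 of those lower, was at 18.5, 39.3, 12.8 and 15.2 FPKM. All 8 genes were higher in library G than in library F, with log2 gaps from 0.07 for Xirp2 to 2.17 for Csrp3, against a median absolute gap of 0.15 over all rows. In bulk muscle, fewer fibres of a type and less RNA per fibre cannot be told apart, and the part of slow fibres in these levels was not tested.

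**Figure D2:**
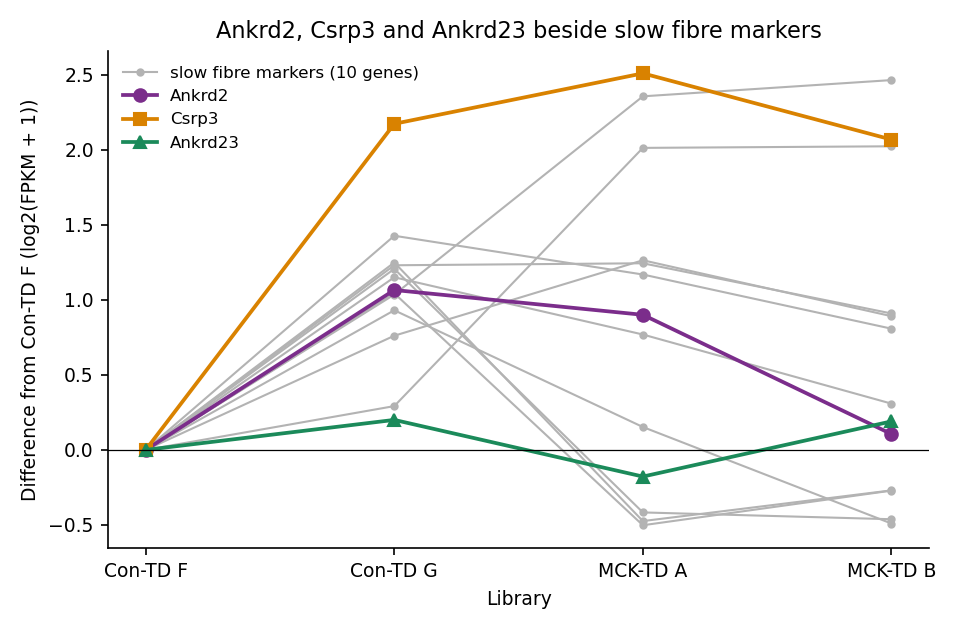
Difference of each library from Con-TD F on the log2(FPKM + 1) scale for Ankrd2, Csrp3 and Ankrd23 (coloured) and for 10 slow-fibre markers (grey), with lines joining the values of 1 gene. Con-TD G lies above Con-TD F for Csrp3 by 2.17, for Ankrd2 by 1.07 and for all 10 markers.

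The Xin repeat genes differed in opposite directions. Xirp1 measured 15.6 (F) and 19.2 (G) FPKM in Con-TD against 58.6 (A) and 46.9 (B) in MCK-TD. Both MCK-TD libraries were above both Con-TD libraries, by 2.44 to 3.75 times, and the group means were 17.4 ± 2.55 and 52.7 ± 8.21 FPKM (SD, n = 2), 3.03-fold apart. Xirp2 measured 470 (F) and 494 (G) FPKM in Con-TD against 263 (A) and 315 (B) in MCK-TD. Both MCK-TD libraries were below both Con-TD libraries. The Xirp2 group means were 482 ± 16.7 and 289 ± 37.1 FPKM (SD, n = 2), 1.67-fold apart. Xirp2 remained the more abundant Xin transcript in each library, but its ratio to Xirp1 was 30.1 and 25.7 in the Con-TD pair and 4.49 and 6.71 in the MCK-TD pair.

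Ankrd23 and both Xin genes overlap another gene in the mouse annotation GENCODE M21, and the strand used in counting is not given in the sources used here. Xirp2 overlaps Gm13601, an antisense transcript, which was at 37.5 and 30.9 FPKM in the Con-TD pair and at 19.9 and 6.26 in the MCK-TD pair. Without strand, reads of Xirp2 and Gm13601 cannot be told apart where they overlap. Xirp1 overlaps Cx3cr1, a chemokine receptor gene of macrophages, on the same strand. Cx3cr1 was at 0.0236 (F), 0.114 (G), 1.28 (A) and 0.786 (B) FPKM, well under the level of Xirp1 in each library. Ankrd23 overlaps the protein-coding Gm42417 on the same strand, for which no row was matched in the table.

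Flnc measured 26.4 (F) and 39.6 (G) FPKM in Con-TD against 104 (A) and 104 (B) in MCK-TD. The MCK-TD libraries were nearly equal and both lay above Con-TD, with group means of 33.0 ± 9.29 and 104 ± 0.627 FPKM (SD, n = 2), 3.15-fold apart. Flna, the filamin of non-muscle cells, was at 13.3, 18.7, 10.6 and 10.0 FPKM in the same order. The ratio of Flnc to Flna was 1.99 and 2.11 in Con-TD and 9.74 and 10.4 in MCK-TD.

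Mustn1 measured 32.9 (F) and 58.0 (G) FPKM in Con-TD against 598 (A) and 825 (B) in MCK-TD. Every MCK-TD value was at least 10.3 times every Con-TD value, with group means of 45.5 ± 17.8 and 711 ± 161 FPKM (SD, n = 2), 15.6-fold apart. It had rank 2051 and 1261 by level in the Con-TD pair and rank 161 and 115 in the MCK-TD pair. In the MCK-TD pair it was second in level to Ankrd23 among the 8 genes. Its log2 difference of 3.97 was number 35 from the top of all rows.

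**Figure D3:**
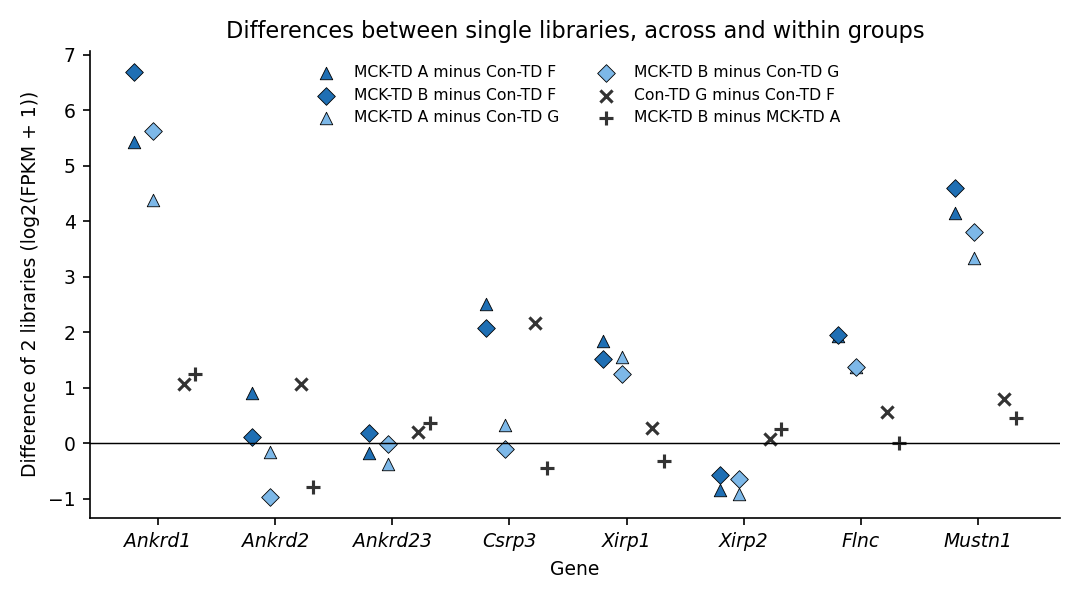
Differences between single libraries on the log2(FPKM + 1) scale for each of the 8 genes: the 4 differences of an MCK-TD from a Con-TD library (coloured) and the difference within each group (crosses). For Ankrd1 the 4 differences run from 4.38 to 6.69 and for Mustn1 from 3.34 to 4.61, while those of Csrp3, from -0.11 to 2.51, lie on both sides of 0.

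The upstream sequences of the genes with the largest difference, Ankrd1 and Mustn1, are printed beside that of Xirp2, which was lower in both MCK-TD libraries. They are the 250 bases before the start in the RefSeq promoter table of build GRCm38.p6, a later build than the mm9 of the deposited levels, and were matched by symbol. They lie at chr19:36119845-36120094 on the minus strand (Ankrd1), chr14:30879007-30879256 on the plus strand (Mustn1) and chr2:67445752-67446001 on the plus strand (Xirp2). Capitals mark matches to CATTCC or its reverse complement, the core of the element bound by TEAD factors, and to the MEF2 site, bound by the muscle regulators of that name. The Mustn1 stretch holds neither.
Ankrd1: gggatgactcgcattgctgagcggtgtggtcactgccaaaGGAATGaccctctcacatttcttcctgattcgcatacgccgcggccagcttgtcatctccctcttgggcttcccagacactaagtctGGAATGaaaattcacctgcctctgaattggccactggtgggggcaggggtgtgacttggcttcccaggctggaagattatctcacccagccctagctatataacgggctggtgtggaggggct
Mustn1: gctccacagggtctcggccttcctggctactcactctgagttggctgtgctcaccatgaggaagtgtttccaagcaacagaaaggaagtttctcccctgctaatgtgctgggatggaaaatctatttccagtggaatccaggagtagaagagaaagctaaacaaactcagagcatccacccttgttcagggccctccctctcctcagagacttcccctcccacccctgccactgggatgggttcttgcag
Xirp2: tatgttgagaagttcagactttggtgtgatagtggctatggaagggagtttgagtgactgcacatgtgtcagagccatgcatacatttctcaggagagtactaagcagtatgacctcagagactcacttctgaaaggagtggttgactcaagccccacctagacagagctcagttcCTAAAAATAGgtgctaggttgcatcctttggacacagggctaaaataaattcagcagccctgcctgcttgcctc

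Of the 8 genes 7, all but Xirp1, had a window in that table, 10 windows in all. CATTCC stood in the upstream part of a window of 3 of these genes (Ankrd1, Ankrd23 and Flnc), and 12.6% of all 32851 windows held it there. The share counts single windows, whereas Ankrd23 and Flnc had 2 windows each and held it upstream in 1 of them. Ankrd1 held it at positions -210 and -123 from the start, both as the reverse complement. Over the whole windows of 300 bases, of which 50 lie past the start, Mustn1 held a match as well, at position 25, and 14.7% of all windows held one. The MEF2 site was matched at position -74 of Xirp2, with 2.92% of all upstream parts holding one. The CArG box, bound by serum response factor, was matched in no window of these genes and in 1.47% of all upstream parts. The E-box CANNTG was found upstream of Ankrd1, Ankrd2, Ankrd23, Csrp3 and Xirp2, but 66.2% of all upstream parts hold it. All motifs were searched on both strands, and a match is a string of letters, not a measured binding site.

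Read against all rows, 5 of the 8 genes had groups that did not overlap, 4 higher and 1 lower in MCK-TD. Over all 12474 rows the groups did not overlap in 72%, with 50.7% higher and 21.3% lower. By limma's moderated test across all rows, with Benjamini-Hochberg adjustment and a threshold of 0.05, the same numbers of the 8 were called, 4 higher and 1 lower, where 30.8% of rows were called, 24.3% higher and 6.45% lower. Without a filter on low values 3 were called higher and 0 lower, and none of the 8 was called when any 1 library was left out. These counts support nothing, since the genes were chosen with the comparison known. The median log2 difference of the 8 was 1.37, against 0.22 for all rows. That median was 0.74 without Con-TD F and 1.81 without Con-TD G.

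The share of calls that were higher in MCK-TD depended on the scaling between libraries. Of the calls over all rows 79.0% were higher in MCK-TD as deposited, 54.8% after median of ratios scaling and 49.1% after quantile normalization. The share was 84.0% after scaling to the sum without mitochondrial and small RNA rows. Which scale is right was not tested. Relative to the median of all rows the 8 genes stood at 5.31 for Ankrd1, 3.76 for Mustn1, 1.44 for Flnc, 1.32 for Xirp1, 0.98 for Csrp3, -0.25 for Ankrd2, -0.31 for Ankrd23 and -0.96 for Xirp2 on the log2 scale. The direction of Ankrd1, Mustn1, Flnc, Xirp1, Csrp3 and Xirp2 was the same in all 3 rescalings tried. Ankrd2 went from -0.03 to 0.03 when scaled to the sum without mitochondrial and small RNA rows and to -0.28 with median of ratios scaling.

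**Figure D4:**
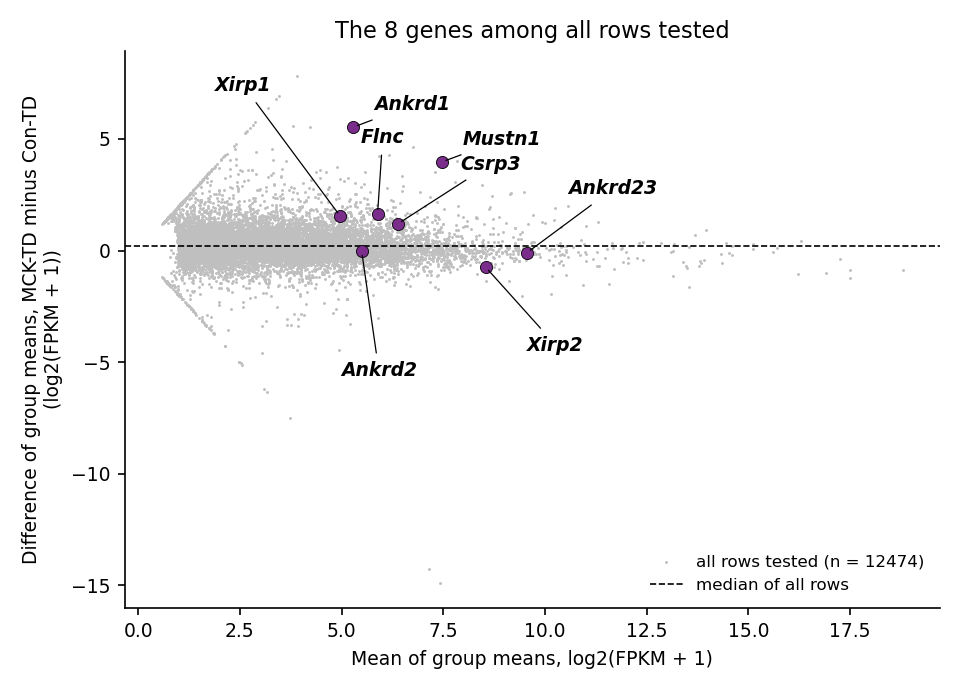
Difference of group means against mean level for 12474 rows (grey), both on the log2(FPKM + 1) scale, with the 8 genes labelled. Ankrd1 at 5.53 and Mustn1 at 3.97 lie above most rows of their level, Xirp2 at -0.74 lies below the dashed median of 0.22, and Ankrd2 and Ankrd23 lie near 0.

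Other genes with the most similar profile were sought by the root mean square difference of centred log2(FPKM + 1) values over the 4 libraries, among 9847 named rows. For Ankrd1 the nearest were the ubiquitin hydrolase Uchl1 (0.26), the embryonic myosin light chain Myl4 (0.46) and the protease inhibitor Serpinb1a (0.48). Uchl1 shared the higher level in MCK-TD B than in A, at 156 against 59.7 FPKM. For Mustn1 they were the prostaglandin dehydrogenase Hpgd (0.20), the microtubule-associated protein gene Mtap1a (0.25) and the collagen cross-linking enzyme Lox (0.26). For Xirp1 they were Dok5 (0.02), the polyadenylation factor Fip1l1 (0.03) and the matricellular gene Ctgf (0.03). Con-TD levels (F, G) were low for Uchl1 (0.794, 1.27), Hpgd (0.548, 1.23), Mtap1a (0.480, 0.965) and Dok5 (0.452, 0.839 FPKM). The 1 FPKM added before log2 narrows differences at such levels. Hpgd, Dok5 and Mtap1a passed the minimum mean of 1 FPKM only through the MCK-TD libraries. Only 4 values per row were compared, and how often such close profiles arise was not tested. For Csrp3 those given are Ap1g2 (0.21) and the phosphatase Dusp10 (0.22), both lowest in Con-TD F. Dusp10 was at 4.25 (F), 14.7 (G), 25.4 (A) and 16.7 (B) FPKM.

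Genes that neighbour the 8 in function were taken from 5 lists that hold none of the 8 and tested by limma across all rows. All 5 lists were chosen with earlier results of these data known, so an excess of calls over the background supports nothing. Among filamin, Xin and their chaperone partners, 12 of 18 genes tested rose in MCK-TD and 0 fell. Of all rows 30.8% were called, 24.3% higher and 6.45% lower. The median log2 change of the filamin and Xin partners was 0.97, against 0.22 for all rows. At an unadjusted p under 0.05, 2 of the 18 were lower. Hspb7, a small heat shock protein that binds filamin C, was at 45.2 (F), 69.2 (G), 1061 (A) and 789 (B) FPKM (log2 change 4.01, SE 0.27, limma adjusted p = 0.00738). Bag3, the co-chaperone that clears damaged filamin, was at 32.8, 36.8, 181 and 152 FPKM (log2 change 2.23, SE 0.14, limma adjusted p = 0.00690). Hspb1 rose 7.66-fold to 971 ± 179 FPKM (limma adjusted p = 0.00735). The autophagy receptor Sqstm1 rose 6.29-fold to a mean of 1793 FPKM (limma adjusted p = 0.00574). With median of ratios scaling 9 of the list were higher and 2 lower, and with quantile normalization 10 and 2.

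Among titin and Z-disc genes, 8 of 21 tested rose (38.1%) and 4 fell, where 24.3% of all rows were called higher and 6.45% lower. The median log2 change of the list was 0.11, against 0.22 for all rows. Actn2, the Z-disc actinin of all fibres, rose from 140 ± 50.2 to 409 ± 91.8 FPKM (limma adjusted p = 0.0297). Actn3, its fast-fibre relative, was at 3563, 3108, 992 and 1335 FPKM in the 4 libraries and fell 2.87-fold (limma adjusted p = 0.0127). Pdlim3, an actinin-binding LIM protein gene, rose 2.84-fold (limma adjusted p = 0.0101). Nrap, which links actin to the membrane at myotendinous junctions, was at 85.3, 108, 271 and 234 FPKM and rose 2.61-fold (limma adjusted p = 0.0120, the more abundant of its 2 rows). After median of ratios scaling the list had 6 higher and 7 lower. Quantile normalization gave 7 and 4, and scaling to the sum without mitochondrial and small RNA rows gave 8 and 4.

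Of the LIM domain genes, relatives of Csrp3, 5 of 17 tested rose (29.4%) and 2 fell. Of all rows 24.3% were called higher and 6.45% lower, so this list was near the background. Its median log2 change was 0.26, against 0.22 for all rows. Fhl1, a sarcomere LIM protein gene, measured 114 (F) and 274 (G) FPKM in Con-TD against 1086 (A) and 846 (B) in MCK-TD. It rose 4.98-fold (log2 change 2.43, SE 0.46, limma adjusted p = 0.0264). Lmcd1 rose 3.85-fold (limma adjusted p = 0.0315), Lims1, the integrin-linked adaptor PINCH, 3.77-fold (limma adjusted p = 0.00738) and Crip2 2.92-fold (limma adjusted p = 0.0186). Csrp1 and Csrp2, the closest relatives, had means of 10.2 and 8.76 and of 2.53 and 2.84 FPKM in Con-TD and MCK-TD. The limma adjusted p was 0.308 for Csrp1 and 0.786 for Csrp2.

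Factors and targets of SRF, MRTF and TEAD, the regulators that couple actin tension to transcription, went both ways. Of 21 genes tested 6 rose (28.6%) and 3 fell, where 24.3% of all rows were called higher and 6.45% lower. The median log2 change of the list was -0.02. Wwtr1, which encodes the TEAD coactivator TAZ, was at 5.47 (F), 6.12 (G), 16.9 (A) and 19.4 (B) FPKM (limma adjusted p = 0.00800). Tead4 was at 0.977, 0.644, 3.66 and 4.0 FPKM (limma adjusted p = 0.0114), and it passed the minimum mean of 1 FPKM only through the MCK-TD libraries. Ctgf, a TEAD target, rose 3.12-fold to 30.4 ± 4.48 FPKM (limma adjusted p = 0.0120). Myl9, a smooth muscle myosin light chain and MRTF target, fell 2.46-fold to 12.1 ± 0.291 FPKM (limma adjusted p = 0.0268). With median of ratios scaling 6 of the list were higher and 6 lower, and with quantile normalization 5 and 6.

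Other genes with an Ankrd symbol, which lie outside the muscle ankyrin repeat family, had 4 of 22 tested higher (18.2%) and 2 lower. This was near the background of 24.3% higher and 6.45% lower over all rows. The median log2 change of these Ankrd genes was 0.25. Ankrd10 rose 2.29-fold to 11.7 ± 0.964 FPKM (limma adjusted p = 0.0125) and Ankrd27 rose 2.48-fold to 5.0 ± 0.196 FPKM (limma adjusted p = 0.0122). Ankrd39 rose 2.11-fold (limma adjusted p = 0.0236) and Ankrd13a 1.79-fold (limma adjusted p = 0.0174). In these 5 lists Sqstm1 alone was still called when MCK-TD A or MCK-TD B was left out, and no gene was called without Con-TD F or without Con-TD G, when limma called 62 and 90 rows in all. At an unadjusted p under 0.05, 12 and 11 filamin and Xin partners were then still higher.

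**Figure D5:**
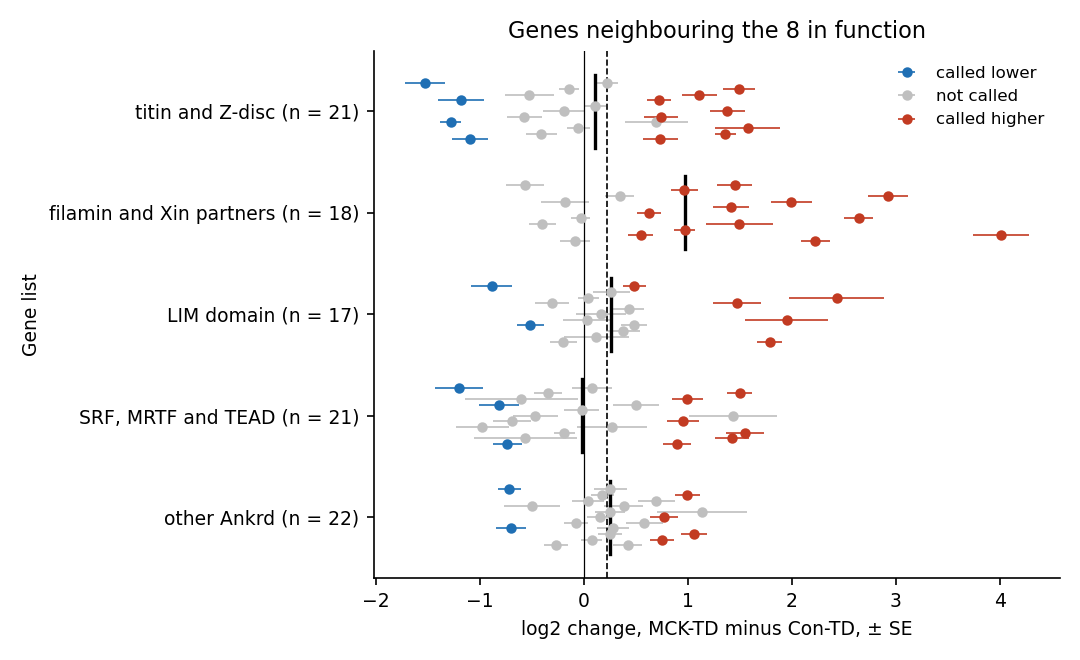
log2 change (MCK-TD minus Con-TD, ± SE of the limma fit) of the genes tested in 5 lists, coloured by limma call, with a bar at the median of each list and a dashed line at the median of all rows, 0.22. The 12 called genes among filamin and Xin partners lie above 0.5, while titin and Z-disc genes hold 8 called higher and 4 called lower.

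Markers of other cells differed between the groups. Macrophage markers (10 of 10 in the table, none at 0) summed to 30.2 and 41.9 FPKM in the Con-TD pair and to 159 and 128 in the MCK-TD pair. In both MCK-TD libraries 7 of the 10 were higher and 0 lower, while Cd163, Mrc1 and Itgam had overlapping groups. Markers of regenerating fibres and myoblasts (10 of 10, none at 0) summed to 310 and 278 FPKM in Con-TD and to 677 and 785 in MCK-TD. Of these 7 were higher and 2 lower in both MCK-TD libraries, against 50.7% and 21.3% of all rows tested. Myl4, at 10.8, 14.1, 478 and 557 FPKM, made up most of the MCK-TD sum, and the perinatal myosin Myh8, at 256, 221, 102 and 123 FPKM, most of the Con-TD sum. The embryonic myosin Myh3 was at 28.8, 26.7, 21.8 and 24.1 FPKM and the satellite cell factor Pax7 at 0.404, 0.307, 0.316 and 0.412. Tendon and myotendinous markers (8 of 8, none at 0) summed to 38.8 and 61.4 FPKM in Con-TD and 113 and 118 in MCK-TD, with Thbs4, Scx and Col22a1 higher and Fmod and Kera lower in both MCK-TD libraries. Smooth muscle markers (8 of 8, none at 0) summed to 830 and 829 FPKM in Con-TD and 2021 and 1938 in MCK-TD. Desmin, shared with skeletal fibres, made up most of that sum, and 6 of the 8 were lower in both MCK-TD libraries. Endothelial markers (8 of 8) summed to 35.4 and 46.0 FPKM in Con-TD and 27.1 and 20.04 in MCK-TD, and 7 were lower in both MCK-TD libraries. Those of fibro-adipogenic progenitors (8 of 8) summed to 461 and 582 against 284 and 375, and 5 were lower in both. Lum, Col1a1 and Col3a1 had overlapping groups. Adipocyte markers (6 of 6, with Lep listed at 0 in 1 library) summed to 223 and 456 FPKM in Con-TD and 200 and 135 in MCK-TD. The part of these cells in the levels of the 8 genes was not tested.

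Ankrd1, Csrp3 and both Xin genes are well known from heart, so cardiac markers were read as well. Of 10 markers Nkx2-5 was listed at 0 in all 4 libraries, and Gata4, Ryr2, Mybpc3 and Myl7 did not exceed 0.0395 FPKM in any library. The natriuretic peptide gene Nppa stayed at or below 0.269 FPKM, and Nppb was listed at 0 in both Con-TD libraries and was at 0.492 and 0.533 FPKM in MCK-TD. The cardiac myosin Myh6 was at 6.93 (F), 12.7 (G), 3.12 (A) and 3.32 (B) FPKM. Cardiac troponin I, Tnni3, was at 1.65, 0.583, 1.40 and 0.387 FPKM. Actc1, which limb muscle also expresses, was at 915 and 659 FPKM in the Con-TD pair and at 623 and 505 in the MCK-TD pair.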

How the data were processed

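Total RNA came from Trizol extraction with DNase treatment, and libraries from routine preparation by BGI, per the labels' protocols. The authors deposited FPKM values, 1 column per library. The submitters' processing notes list STAR, Cufflinks and build mm9; versions, annotation and strand are not given in the sources used. Low values gave relative depths but no counts. Notes deposited on other sheets were not used.

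Values were taken as log2(FPKM + 1), which understates changes of low genes, over rows with a mean of at least 1 FPKM. Exact zeros can be failed estimates: mt-Co1, mt-Co3 and mt-Atp6 are listed at 0 in all 4 libraries. Limma 3.58.1 under R 4.3.3 fitted group alone with an intensity trend, two-sided, with Benjamini-Hochberg adjustment over all rows, and was tested on simulated data. Fold values are ratios of mean FPKM, and errors are SD over 2 libraries or limma SE. Of rows sharing a symbol the most abundant was used.

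The 8 genes and all lists were chosen with earlier results of these data known. Named from each list were up to 4 genes, first calls with the largest change. Csrp1 and Flna were named as partners in ratios to Csrp3 and Flnc. Csrp2, single markers and overlapping genes were named after their values were seen. Alternatives covered pseudocount, filter, scaling, variance trend and each library left out. The nearest profiles were the 3 rows closest to each of 4 genes, of which 1 is not reported here.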

Additional observations from a re-analysis of the deposited data

How the results depend on the processing

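Total counts of calls by limma, both directions together, stayed within 1.5 times of those reported under another pseudocount, a minimum mean of 5 FPKM, all 3 rescalings and a fit without the intensity trend. The split by direction did not: 3033 higher and 804 lower over all rows became 1833 and 1510 with median of ratios scaling and 1615 and 1672 with quantile normalization. Without a filter on low values, which adds many low rows, 2043 rows were called, with 4 titin and Z-disc, 1 LIM domain and 2 SRF, MRTF and TEAD genes among them. Leaving out 1 library, which leaves a lone library assumed to vary like the other group, gave 62 to 162 calls over all rows. It gave 0 to 1 for filamin and Xin partners and 0 for the titin and Z-disc, LIM domain, SRF, MRTF and TEAD and other Ankrd lists. At an unadjusted p under 0.05, limma then had 3034 to 3625 of 12474 rows higher and 955 to 1047 lower. In the lists it had 6 to 9 titin and Z-disc genes higher and 4 to 6 lower, 11 to 12 filamin and Xin partners higher and 0 to 1 lower, and 3 to 6 LIM domain genes higher and 1 to 3 lower. It had 6 to 8 SRF, MRTF and TEAD genes higher and 1 to 6 lower, and 4 to 8 other Ankrd genes higher and 1 to 2 lower. The median log2 difference of the 8 genes ran from 0.74 to 1.81 over the left-out libraries. None of the 8 had a duplicated row, so summing rows changed nothing. No paired analysis was possible because the library letters are not shared between the groups. Depth could not be recovered as counts, so no counting error is given.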
